A study of Mus musculus with 9 samples.

Results

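Wnt proteins are secreted, lipid-modified signals that bind Frizzled receptors on a neighbouring cell. Together with the co-receptors Lrp5 and Lrp6 they stabilise beta-catenin, which then acts with Tcf/Lef factors on target genes such as Axin2, while other Wnts, Wnt5a among them, are better known for beta-catenin-independent signalling through planar polarity and calcium. The signal is tuned outside the cell. Secreted Frizzled-related proteins (Sfrp) and Wif1 bind Wnts, Dickkopf proteins (Dkk) mostly act on Lrp5 and Lrp6, and R-spondins act through Lgr receptors to keep Frizzled at the surface. Embryonic fibroblasts are mesenchymal cells in which many of these secreted proteins are made, and Wnt signalling is known to affect reprogramming to pluripotency.

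The genes described are the Wnt ligands, the Frizzled receptors, Lrp5 and Lrp6, the R-spondins with Lgr4 and Lgr5, the secreted antagonists of the Sfrp and Dkk families with Wif1, and the nuclear and feedback genes Lef1 and Axin2. They were selected by gene name, and 49 of the 54986 gene IDs in the files carry such a name. These are 48 genes, since Fzd6 has 2 IDs, of which 1 lies on an alternate patch sequence. The unit is TPM, the authors' RNA-seq measure of transcript abundance, which corrects for gene length and library size. Primary embryonic fibroblasts of C57BL/6 mice were used in 3 groups of 3 libraries, and every library, control included, is labelled D4-OSKM-2ndMEFs. The control libraries carry no further name, so that neither an empty vector nor an untreated state is stated for them, and the other groups overexpress Zscan4f or Zscan4f3A. OSKM is the usual short name of the reprogramming factors Oct4, Sox2, Klf4 and Myc. No group without it is included, and what distinguishes Zscan4f3A from Zscan4f, what promoter drives them and what D4 stands for is stated nowhere in the labels.

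The label was checked on Zscan4f itself, a zinc finger gene known from the early embryo, whose reads could be split among near-identical copies. Zscan4f was at 0.430 ± 0.488 TPM in control libraries, 564 ± 6.18 with Zscan4f and 772 ± 102 with Zscan4f3A (mean ± SD, n = 3 each). By a rough estimate, aligned sequence ran from 6.60 to 8.39 gigabases in 8 libraries and was 3.31 in Zscan4f3A replicate 3. All 10 fibroblast markers examined passed the filter described below. With Zscan4f 3 of them were higher than in control (Dcn, Col1a2 and Pdgfra) and 5 were lower (Pdgfrb, Col1a1, Fn1, Vim and Col3a1). Lum and Thy1 were not called. Of all genes tested 8.74% were higher and 9.71% lower. Nothing states that replicates came from separate cultures, so p-values measure only the spread between these libraries, which may be technical. In bulk RNA, a change in the number of cells of a type and a change of RNA per cell cannot be told apart.

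Of the 49 gene IDs, 32 reached 1 TPM in at least 3 of the 9 libraries and were tested in limma with 15837 genes in all, on log2(TPM + 1). Calls were made where p, adjusted after Benjamini and Hochberg over all genes, was under 0.05. The other 17 are named with their highest level only. With Zscan4f, 15 of the 32 tested differed from control. Of these, 3 were higher (Sfrp1, Sfrp4 and Wnt7a) and 12 were lower (Sfrp2, Dkk2, Dkk3, Wnt5a, Wnt2, Fzd2, Fzd5, Fzd8, Lrp5, Lgr4, Lgr5 and Rspo2). Over all tested genes 18.5% were called, 8.74% higher and 9.71% lower. The median log2 fold change was -0.15 over the 32 and -0.003 over all genes tested. With Zscan4f3A, 0 of the 32 differed from control in limma, where 0.0316% of all genes were called. An unadjusted p under 0.05 was found for 6 of the 32, beside 1389 of all 15837 genes tested. Zscan4f against Zscan4f3A, the direct comparison of both overexpressions, gave 3 higher and 6 lower among the 32, where 15.1% of all genes were called, 7.48% higher and 7.64% lower. The comparisons share libraries: both comparisons with control use the same 3 control libraries, and the direct one uses the same Zscan4f libraries as the first. Their values are therefore given side by side. Groups of 3 libraries often did not overlap. The Zscan4f libraries lay wholly above control for 3009 and wholly below for 3041 of all genes tested. Among the 32 these numbers were 7 and 15. Against Zscan4f3A they were 2891 and 2614 of all genes, and 4 and 12 of the 32. For Zscan4f3A against control they were 996 and 1439 of all genes, and 1 and 7 of the 32.

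**Figure D1:**
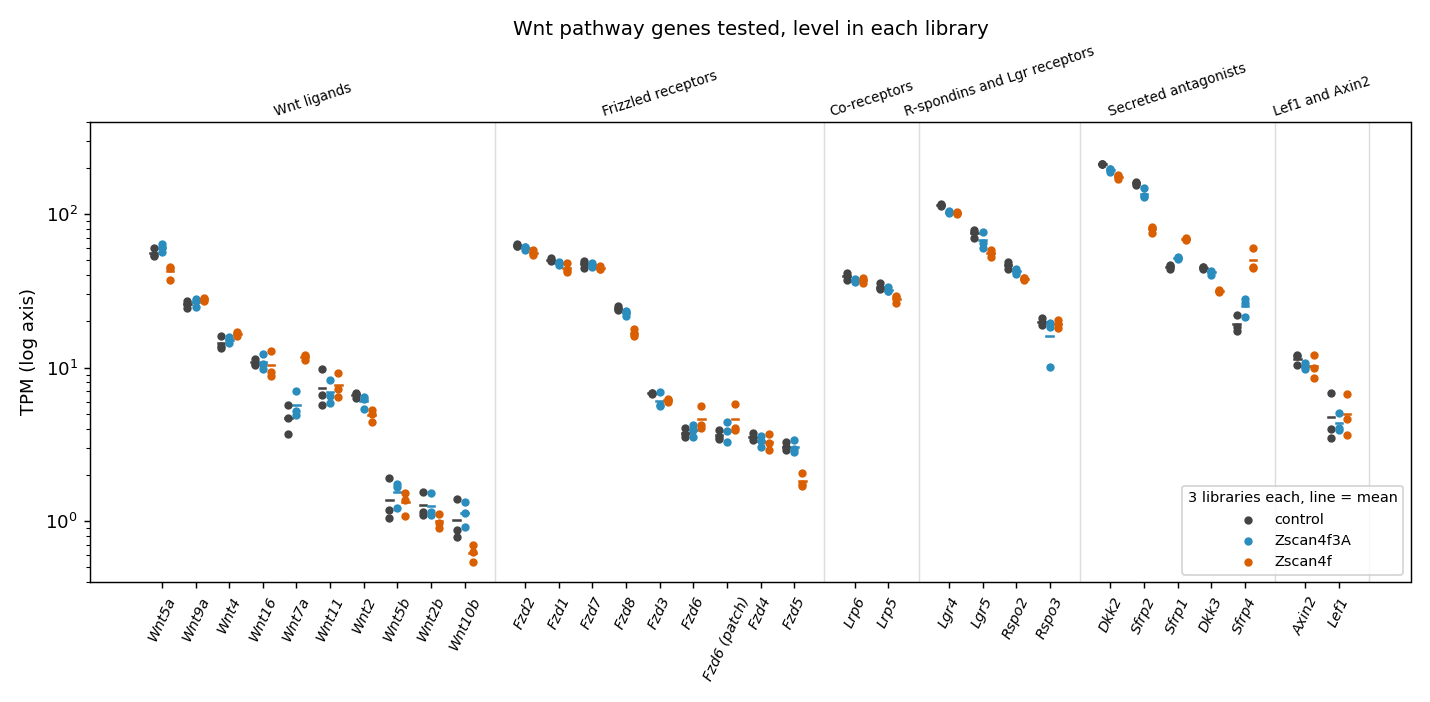
TPM of the 32 tested gene IDs on a log axis, grouped by role, with 1 point per library and a line at the mean of 3 libraries of control (grey), Zscan4f3A (blue) and Zscan4f (orange). The antagonist Dkk2 is at the top with means from 176 to 212 TPM. The Zscan4f points of Wnt7a, Fzd8, Fzd5, Sfrp2, Sfrp1, Dkk3 and Sfrp4 lie apart from those of both other groups. So do those of Wnt5a, Dkk2, Lgr5, Rspo2, Lrp5, Wnt2, Fzd2, Wnt10b and Wnt4, some of them narrowly. Of all 15837 genes tested, 3009 had every Zscan4f library above control and 3041 had every one below.

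The secreted antagonists held the most RNA of the signalling parts and every one of the 5 tested was called with Zscan4f, in both directions. Beside this, 18.5% of all genes tested were called, 8.74% higher and 9.71% lower. Sfrp2 and Dkk2 were the most abundant in control, followed by Sfrp1, Dkk3 and Sfrp4. Sfrp2, Dkk2 and Dkk3 fell, while Sfrp1 and Sfrp4 rose.

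Sfrp2, a secreted Wnt-binding protein on GRCm38 chr3:83766321-83774316, was at 154, 159 and 162.5 TPM in control, 75.7, 81.2 and 82.6 with Zscan4f and 131, 129 and 148 with Zscan4f3A. The 3 groups did not overlap, with Zscan4f lowest and Zscan4f3A just under control. The log2 fold change was -0.98 with Zscan4f (SE 0.06, adjusted p = 1.68e-05 by limma), -0.22 with Zscan4f3A (95% interval -0.36 to -0.09, adjusted p = 0.413) and -0.76 in the direct comparison (adjusted p = 0.000115). An antisense gene, Gm26771, covers 16.1% of the exon bases of Sfrp2 and stood at 3.00 to 7.52 TPM. No source used here states whether strand was used in counting, so the reads of both cannot be told apart.

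Sfrp1, of the same family, lies on chr8:23411502-23449632. It was at 43.6, 46.1 and 46.6 TPM in control, 69.2, 69.5 and 68.1 with Zscan4f and 51.4, 52.6 and 51.1 with Zscan4f3A. No libraries of different groups overlapped, and Zscan4f3A again lay between the others. Sfrp1 rose by a log2 fold change of 0.59 with Zscan4f (SE 0.04, adjusted p = 3.26e-05) and by 0.41 in the direct comparison (adjusted p = 0.000374), with 0.18 for Zscan4f3A against control (95% interval 0.09 to 0.28, adjusted p = 0.317).

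Sfrp4, the least abundant of the 5 in control, lies on chr13:19623104-19632994 and was at 17.2, 22.1 and 18.4 TPM in control, 44.8, 45.4 and 59.7 with Zscan4f and 26.5, 21.3 and 28.1 with Zscan4f3A. All Zscan4f libraries were above all others, and Zscan4f replicate 3 was the highest, while control and Zscan4f3A overlapped. It had the largest log2 fold change of the 32, 1.32 with Zscan4f (SE 0.15, adjusted p = 0.000412). The direct comparison gave 0.95 (adjusted p = 0.00317), and Zscan4f3A against control gave 0.37 (95% interval 0.04 to 0.71, adjusted p = 0.525).

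Within the Sfrp family, the share of each gene was read beside the sum. The summed TPM of Sfrp1, Sfrp2, Sfrp4 and Sfrp5 was 223 ± 7.25 in control libraries, 199 ± 10.7 with Zscan4f and 213 ± 12.7 with Zscan4f3A (SD, n = 3). Sfrp2 made up 70.0 to 71.7% of that sum in the control libraries, 39.3 to 41.4% in the Zscan4f libraries and 62.7 to 65.2% in the Zscan4f3A libraries. Sfrp4 made up 8.01 to 9.74%, 23.1 to 28.4% and 10.5 to 12.7%. These sums and shares carry no test of their own. They leave out Frzb, a related gene that the selection by name did not take in and that is described below.

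Dkk2, a Dickkopf protein that binds the Wnt co-receptors, was the most abundant of all 49 gene IDs and lies on chr3:132085292-132180304. Its level was 212.5, 211 and 212 TPM in control, 179, 178.5 and 169.7 with Zscan4f and 198, 198 and 188 with Zscan4f3A. The groups did not overlap, and Zscan4f was lowest. Dkk2 fell by 0.27 on the log2 scale with Zscan4f (SE 0.04, adjusted p = 0.00108) and by 0.15 against Zscan4f3A (adjusted p = 0.026), with -0.12 for Zscan4f3A against control (95% interval -0.20 to -0.04, adjusted p = 0.435). The direct call was lost without Zscan4f replicate 2 (adjusted p = 0.0518) or 3 (0.0909), without Zscan4f3A replicate 1 (0.0757) or 2 (0.0807), in a fit of those groups alone (0.0702) and with no trend in the prior variance (0.0803).

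Dkk3, a more distant family member whose action on Wnt signalling is less settled, lies on chr7:112116017-112159057. It was at 44.9, 43.8 and 45.3 TPM in control, 30.9, 31.6 and 32.0 with Zscan4f and 42.0, 40.4 and 42.8 with Zscan4f3A. The Zscan4f libraries stood well below the other 6, whose groups were close but did not overlap. Dkk3 fell by 0.49 on the log2 scale with Zscan4f (SE 0.04, adjusted p = 0.00012) and by 0.39 against Zscan4f3A (adjusted p = 0.00056), with -0.10 for Zscan4f3A against control (adjusted p = 0.567). The 9 antagonists selected by name were also summed. Their TPM was 481 ± 6.48 in control libraries, 406 ± 6.53 with Zscan4f and 449.9 ± 7.99 with Zscan4f3A. The other antagonists did not reach the filter, with highest levels of 0.965 TPM for Wif1, 0.456 for Dkk1, 0.122 for Sfrp5 and 0 for Dkk4.

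**Figure D2:**
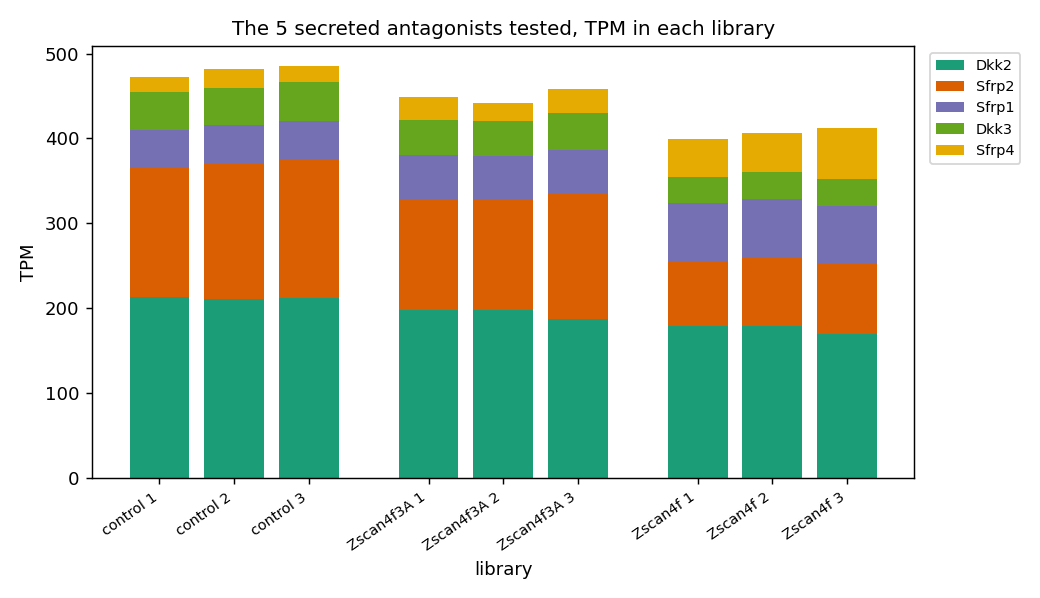
Stacked bars of the TPM of the 5 tested antagonists in each of the 9 libraries, in the order control, Zscan4f3A and Zscan4f. The Sfrp2 segment is shortest in the 3 Zscan4f libraries (75.7 to 82.6 TPM), where the Sfrp4 and Sfrp1 segments are longest.

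The promoters of Sfrp2 and Dkk2 are printed because these are the most abundant antagonists and both fell with Zscan4f. Sfrp1 and Sfrp4 had no entry. The bases are the 250 before the start of transcription in RefSeq, build GRCm38.p6, both on the plus strand, at chr3:83766071-83766320 for Sfrp2 and chr3:132085042-132085291 for Dkk2. Capitals mark CG pairs and, in Dkk2, also the word TATAAA that begins 32 bases before the start.
Sfrp2: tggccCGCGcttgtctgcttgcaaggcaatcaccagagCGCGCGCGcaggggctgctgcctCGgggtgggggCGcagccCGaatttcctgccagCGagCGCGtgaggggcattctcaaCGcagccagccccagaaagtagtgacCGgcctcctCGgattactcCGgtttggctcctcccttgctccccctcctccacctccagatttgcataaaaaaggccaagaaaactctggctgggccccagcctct
Dkk2: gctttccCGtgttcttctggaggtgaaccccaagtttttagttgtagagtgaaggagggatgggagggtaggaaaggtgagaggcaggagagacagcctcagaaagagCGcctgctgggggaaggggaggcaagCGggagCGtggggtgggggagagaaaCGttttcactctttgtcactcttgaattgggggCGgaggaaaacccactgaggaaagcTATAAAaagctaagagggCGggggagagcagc
They differ in composition. The Sfrp2 stretch holds 63.6% G and C with 16 CG pairs, and that of Dkk2 55.6% with 7, beside medians of 52.4% and 6 over 32851 promoters of the same length. TATAAA on the gene's strand within 50 bases of the start was found in 2.63% of those promoters. Tcf/Lef words (the word AACAAAG, the word ATCAAAG, the word TACAAAG or the word TTCAAAG, on either strand) were found in neither sequence, in 13.5% of the 37 entries that 31 of the 48 gene names have, and in 14.8% of all promoters. A missing word says only that these letters are not in this window.

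Among the 19 Wnt ligands, 10 were tested and 3 were called with Zscan4f, 1 higher and 2 lower. Of all genes tested 18.5% were called, 8.74% higher and 9.71% lower. Wnt7a rose, and Wnt5a and Wnt2 fell. Wnt5a was the most abundant ligand in each group, ahead of Wnt9a, Wnt4 and Wnt16 in control. Wnt7a was below Wnt11 and Wnt2 in the means of control and Zscan4f3A and above both with Zscan4f.

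Wnt5a, the ligand best known for beta-catenin-independent signalling, lies on chr14:28504750-28527448. It was at 54.4, 53.4 and 59.7 TPM in control, 45.0, 37.3 and 44.7 with Zscan4f and 56.8, 61.1 and 63.7 with Zscan4f3A. The Zscan4f libraries were below all others, while control and Zscan4f3A overlapped. Wnt5a fell by 0.40 on the log2 scale with Zscan4f (SE 0.08, adjusted p = 0.0113) and by 0.51 against Zscan4f3A (adjusted p = 0.00407), with 0.12 for Zscan4f3A against control (95% interval -0.07 to 0.30, adjusted p = 0.692). Its share of all ligand TPM was 42.9% in control, 33.8% with Zscan4f and 44.3% with Zscan4f3A.

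Wnt7a, a ligand known from limb and neural development, lies on chr6:91363981-91411363. It was at 4.66, 5.73 and 3.71 TPM in control, 11.3, 12.1 and 11.8 with Zscan4f and 7.01, 5.25 and 4.90 with Zscan4f3A. The Zscan4f libraries were above all others, and control and Zscan4f3A overlapped. Wnt7a rose by 1.17 on the log2 scale with Zscan4f (SE 0.15, adjusted p = 0.00104) and by 0.93 against Zscan4f3A (adjusted p = 0.00432), with 0.24 for Zscan4f3A against control (95% interval -0.11 to 0.59, adjusted p = 0.665). Its share of ligand TPM was 3.61% in control, 9.36% with Zscan4f and 4.18% with Zscan4f3A.

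The promoter of Wnt7a, printed because it was the only ligand of the 10 tested that was called higher with Zscan4f, is the 250 bases before the RefSeq start on the minus strand of GRCm38.p6, chr6:91411354-91411603, read 5′ to 3′ with CG pairs in capitals.
Wnt7a: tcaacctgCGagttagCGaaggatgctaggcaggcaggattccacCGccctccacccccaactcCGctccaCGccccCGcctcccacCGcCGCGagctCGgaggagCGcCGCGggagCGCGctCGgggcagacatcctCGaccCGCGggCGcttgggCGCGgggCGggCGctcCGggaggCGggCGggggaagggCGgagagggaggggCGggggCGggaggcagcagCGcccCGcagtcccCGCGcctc
It holds 77.6% G and C and 34 CG pairs, more than either antagonist promoter above, and the median over the 37 entries of these genes is 66.8% G and C. None of the Tcf/Lef words is in it.

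Wnt2, a ligand of mesenchyme in several organs, was at 6.76, 6.32 and 6.85 TPM in control, 5.32, 4.95 and 4.44 with Zscan4f and 6.44, 5.34 and 6.27 with Zscan4f3A. Wnt2 lies on chr6:17988940-18030585. Zscan4f was below all other libraries, narrowly so for Zscan4f3A replicate 2. The log2 fold change was -0.38 with Zscan4f (SE 0.10, adjusted p = 0.0272), -0.13 with Zscan4f3A (adjusted p = 0.71) and -0.25 in the direct comparison (adjusted p = 0.123). The call against control was lost with no filter on low values (adjusted p = 0.0603) and without control replicate 1 (0.0799), 2 (0.0524) or 3 (0.0834), or Zscan4f replicate 2 (0.068) or 3 (0.0929).

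Wnt9a, second to Wnt5a in level, was at 26.0, 27.1 and 24.5 TPM in control, 27.8, 27.1 and 28.5 with Zscan4f and 28.0, 24.9 and 27.3 with Zscan4f3A. It was not called (log2 fold change 0.10, 95% interval -0.04 to 0.24, adjusted p = 0.319). Wnt4 was not called either (log2 fold change 0.19, 95% interval 0.02 to 0.36, adjusted p = 0.117). Wnt16 and Wnt11 had group means of 10.3 to 10.8 and of 6.92 to 7.65 TPM, and Wnt5b, Wnt2b and Wnt10b had means from 0.623 to 1.54. None of these 5 was called in any comparison. Summed over the 19 ligands, TPM was 130.3 ± 1.87 in control libraries, 125 ± 3.75 with Zscan4f and 137 ± 3.31 with Zscan4f3A. Of the 9 ligands below the filter, Wnt7b reached 0.585 TPM, Wnt3 0.402, Wnt10a 0.320, Wnt6 0.222, Wnt8a 0.179, Wnt9b 0.134, Wnt1 0.0948 and Wnt8b 0.0688, and Wnt3a was listed at 0 in every library.

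The Frizzled receptors showed 3 genes lower and 0 higher with Zscan4f among 9 tested IDs, beside 9.71% lower and 8.74% higher of all genes tested. Fzd2, Fzd1 and Fzd7 were the most abundant, and the calls were for Fzd8, Fzd5 and Fzd2.

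Fzd8, a receptor gene on chromosome 18, was at 24.2, 23.8 and 25.2 TPM in control, 16.6, 17.8 and 16.1 with Zscan4f and 23.3, 21.6 and 22.9 with Zscan4f3A. The Zscan4f libraries lay apart below the other 6. Fzd8 fell by 0.51 on the log2 scale with Zscan4f (SE 0.06, adjusted p = 0.000527) and by 0.41 against Zscan4f3A (adjusted p = 0.00238), with -0.10 for Zscan4f3A against control (95% interval -0.24 to 0.03, adjusted p = 0.637).

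Fzd5, at a lower level, lies on chr1:64730558-64737751 and was at 3.26, 2.89 and 3.02 TPM in control, 1.75, 1.70 and 2.06 with Zscan4f and 2.94, 3.39 and 2.80 with Zscan4f3A. Again the Zscan4f libraries were below all others, and control and Zscan4f3A overlapped. Fzd5 fell by 0.52 on the log2 scale with Zscan4f (SE 0.11, adjusted p = 0.0105) and by 0.51 against Zscan4f3A (adjusted p = 0.0136), with -0.01 for Zscan4f3A against control (95% interval -0.25 to 0.24, adjusted p = 0.993).

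Fzd2, on chr11:102604396-102608058, had the highest mean of the Frizzled receptors at 63.7, 62.2 and 62.3 TPM in control, 55.6, 54.4 and 58.0 with Zscan4f and 58.6, 60.6 and 60.9 with Zscan4f3A. The groups did not overlap, but the difference was small. The log2 fold change with Zscan4f was -0.16 (SE 0.04, adjusted p = 0.024), that with Zscan4f3A was -0.06 (adjusted p = 0.669) and the direct comparison gave -0.10 (adjusted p = 0.139). The Fzd2 call was lost without control replicate 1 (adjusted p = 0.0793), 2 (0.058) or 3 (0.0585) and without Zscan4f replicate 1 (0.0697) or 2 (0.0818).

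Fzd1, next in level, was at 51.8, 49.5 and 50.1 TPM in control, 42.2, 43.0 and 47.9 with Zscan4f and 48.1, 46.5 and 48.9 with Zscan4f3A. It missed the threshold against control by little (log2 fold change -0.18, 95% interval -0.31 to -0.06, adjusted p = 0.0501). Without Zscan4f replicate 3, the highest of its group, Fzd1 was called (adjusted p = 0.0174), as it was with a 5 TPM filter (0.0424) or quantile normalization (0.0467). Fzd7 had group means of 44.6 to 47.2 TPM, Fzd3 of 6.07 to 6.80 and Fzd4 of 3.29 to 3.54, and none of them was called. The 2 IDs of Fzd6 are copies of 1 gene, and their summed level was 7.38 ± 0.509 TPM in control libraries, 9.25 ± 1.91 with Zscan4f and 7.74 ± 0.911 with Zscan4f3A. Neither was called (log2 fold changes 0.24 and 0.26, adjusted p = 0.238 and 0.271). Below the filter, Fzd9 reached 0.733 TPM and Fzd10 0.627.

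The co-receptors Lrp5 and Lrp6, single-pass receptors that Wnts join to Frizzled, were at like levels. Lrp5, on chr19:3584828-3686564, was at 32.8, 35.4 and 32.3 TPM in control, 28.8, 26.2 and 29.1 with Zscan4f and 33.3, 31.4 and 31.7 with Zscan4f3A. The Zscan4f libraries were below all others. The log2 fold change of Lrp5 was -0.25 with Zscan4f (SE 0.06, adjusted p = 0.02), -0.06 with Zscan4f3A (adjusted p = 0.781) and -0.19 in the direct comparison (adjusted p = 0.0659). The first was no longer called without control replicate 2 (adjusted p = 0.0702) or Zscan4f replicate 2 (0.0646), and the direct one was called on FPKM (0.0413).

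Lrp6 was at 39.3, 37.0 and 41.6 TPM in control, 38.3, 35.4 and 37.2 with Zscan4f and 37.6, 36.1 and 37.0 with Zscan4f3A. These ranges overlapped, and Lrp6 was not called (log2 fold change -0.09, 95% interval -0.21 to 0.04, adjusted p = 0.355).

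The R-spondin axis had 3 genes lower with Zscan4f among 4 tested, namely Lgr4, Lgr5 and Rspo2, beside 9.71% of all genes tested. In the direct comparison 0 were called. The summed TPM of the 6 genes was 256 ± 7.46 in control libraries, 215 ± 5.33 with Zscan4f and 229 ± 11.1 with Zscan4f3A. The sum leaves out Lgr6, a related receptor outside the selection, named after its values were seen. Lgr6 was at 233 ± 2.4 TPM in control libraries, 245 ± 8.77 with Zscan4f and 235 ± 3.85 with Zscan4f3A. It was not called with Zscan4f (log2 fold change 0.07, adjusted p = 0.193 by limma).

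Lgr4, a receptor for R-spondins on chr2:109917647-110014257, was at 113, 114 and 116 TPM in control, 102, 100.5 and 104 with Zscan4f and 104, 105 and 101 with Zscan4f3A. All 6 overexpressing libraries lay below the control libraries and overlapped with each other. Lgr4 fell by 0.16 on the log2 scale with Zscan4f (SE 0.03, adjusted p = 0.0101). The value with Zscan4f3A was -0.15 (95% interval -0.22 to -0.07, adjusted p = 0.333, unadjusted p = 0.00204), and that of the direct comparison was -0.02 (95% interval -0.09 to 0.06, adjusted p = 0.769).

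Lgr5, the related receptor known as a stem cell marker in the gut and skin, lies on chr10:115450311-115587780. It was at 76.9, 69.4 and 78.5 TPM in control, 56.0, 52.4 and 58.3 with Zscan4f and 60.6, 64.9 and 77.0 with Zscan4f3A. The Zscan4f libraries were lowest, and those with Zscan4f3A spread from just above them into the control range. Lgr5 fell by 0.42 on the log2 scale with Zscan4f (SE 0.09, adjusted p = 0.0122), with -0.15 for Zscan4f3A against control (adjusted p = 0.64) and -0.27 in the direct comparison (adjusted p = 0.0836, and 0.0479 without Zscan4f3A replicate 1).

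Rspo2, an R-spondin ligand on chr15:43020794-43170826, was at 48.6, 43.8 and 46.9 TPM in control, 37.0, 38.3 and 38.2 with Zscan4f and 42.1, 43.9 and 40.9 with Zscan4f3A. The Zscan4f libraries were below all others, and Zscan4f3A overlapped with control. Rspo2 fell by 0.29 on the log2 scale with Zscan4f (SE 0.05, adjusted p = 0.00549), with -0.13 for Zscan4f3A against control (95% interval -0.25 to -0.01, adjusted p = 0.529) and -0.16 in the direct comparison (adjusted p = 0.0798).

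Rspo3, the other R-spondin above the filter, was at 21.0, 19.7 and 18.9 TPM in control, 18.1, 19.3 and 20.3 with Zscan4f and 10.1, 19.4 and 18.2 with Zscan4f3A. It was named after its values were seen, for the low Zscan4f3A replicate 1. Rspo3 was not called, and its value for Zscan4f3A against control was -0.35 with that library (adjusted p = 0.637) and -0.07 without it (adjusted p = 0.783). Rspo1 and Rspo4 reached 0.301 and 0.153 TPM.

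Axin2, a feedback inhibitor that is a standard readout of beta-catenin signalling, was at 10.5, 11.9 and 12.01 TPM in control, 9.98, 8.54 and 12.1 with Zscan4f and 9.83, 10.8 and 10.03 with Zscan4f3A. The ranges overlapped, and the log2 fold change of -0.16 with Zscan4f was not called (95% interval -0.43 to 0.10, adjusted p = 0.401). Lef1, a nuclear partner of beta-catenin, was at 6.81, 3.46 and 3.96 TPM in control, 3.65, 4.59 and 6.70 with Zscan4f and 5.03, 3.92 and 4.04 with Zscan4f3A. Its spread within groups was as wide as between them (log2 fold change 0.07, 95% interval -0.48 to 0.63, adjusted p = 0.89).

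**Figure D3:**
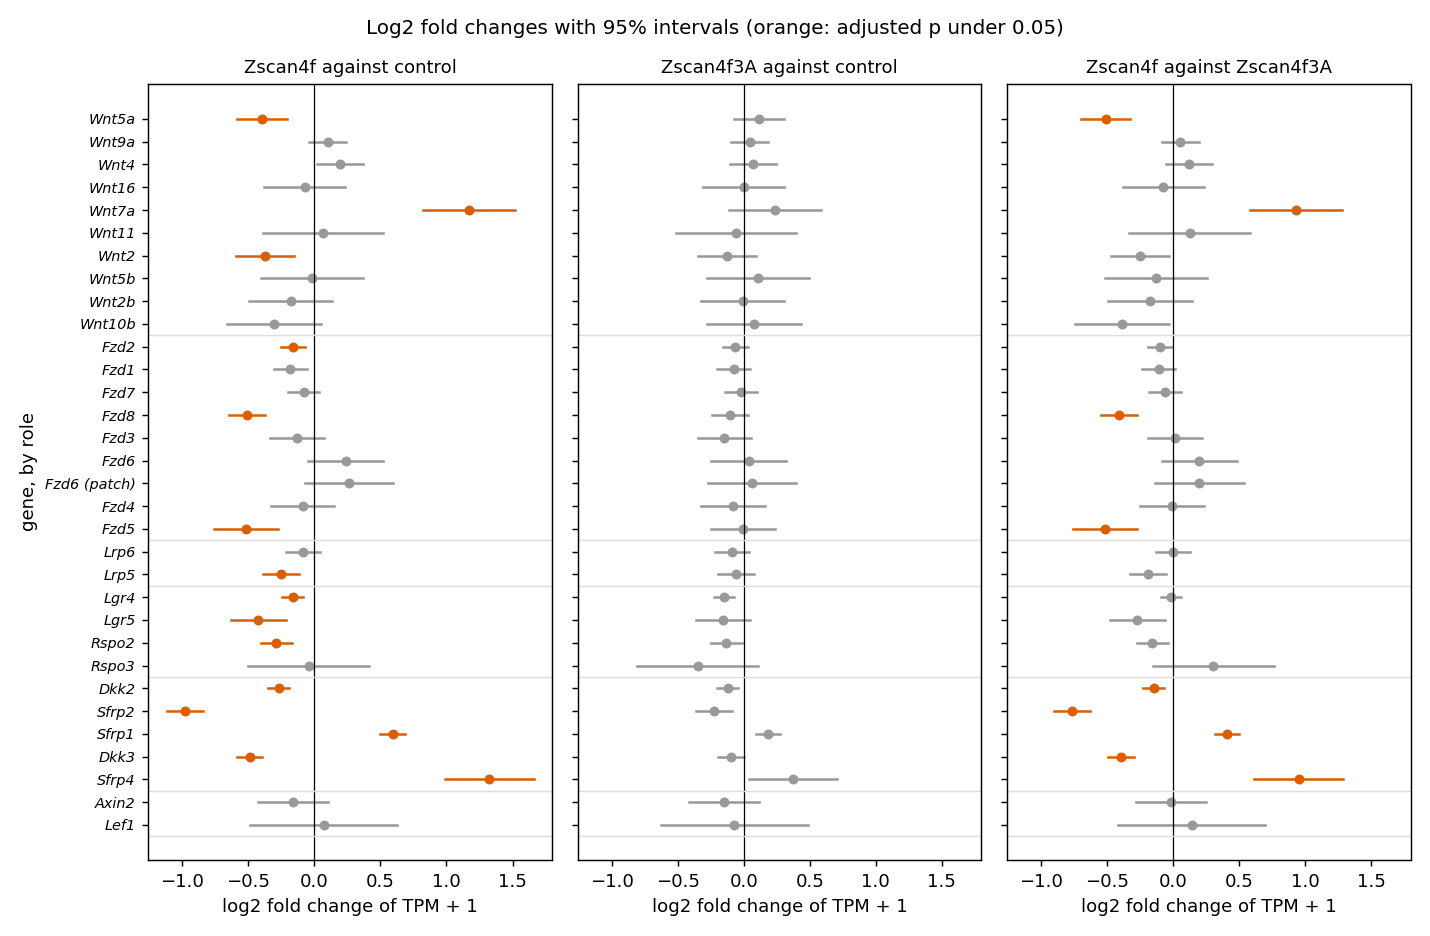
Log2 fold change of TPM + 1 with its 95% interval for the 32 tested gene IDs, by role, in the comparisons of Zscan4f with control, of Zscan4f3A with control and of Zscan4f with Zscan4f3A, with calls at an adjusted p under 0.05 in orange. The first panel has 15 orange genes, the middle panel 0 and the last 9, and Sfrp4 at 1.32 and Sfrp2 at -0.98 are the outermost called in the first.

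A call in the direct comparison was made for only some of the genes called with Zscan4f. Of the 15 genes called with Zscan4f against control, 9 also differed between Zscan4f and Zscan4f3A, namely the 5 antagonists, Wnt5a, Wnt7a, Fzd5 and Fzd8. Over all genes tested 15.1% were called in the direct comparison. Both comparisons use the same Zscan4f libraries, so part of such an overlap is built in. The overlap over all genes was not counted, so the split cannot be read as particular to this family. The other 6 of the 15 were Wnt2, Fzd2, Lrp5, Lgr4, Lgr5 and Rspo2. Their direct differences were not called and lay between -0.27 (Lgr5) and -0.02 (Lgr4). A call did not always mark a larger change. The called Dkk2 (-0.15) changed less than the uncalled Lgr5, Wnt2 (-0.25), Lrp5 (-0.19) and Rspo2 (-0.16). The unadjusted p in limma was 0.0114 to 0.0369 for these 6 genes other than Lgr4 (0.612). The 6 genes with an unadjusted p under 0.05 for Zscan4f3A against control were Sfrp1 (0.00153), Lgr4 (0.00204), Sfrp2 (0.00541), Dkk2 (0.00773), Sfrp4 (0.032) and Rspo2 (0.0333).

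The other genes of the pathway were read from lists made by function. Among 25 other surface and secreted genes, 21 were tested, and 4 were higher and 4 lower with Zscan4f (38.1% called, beside 18.5% of all genes tested). Dkkl1, a Dickkopf-like secreted protein, rose from 1.77 ± 0.372 to 6.60 ± 0.664 TPM and was at 2.27 ± 0.412 with Zscan4f3A (log2 fold change 1.46, adjusted p = 0.000219). The glypicans Gpc3 and Gpc6, cell surface proteoglycans that bind Wnts, fell from 50.04 ± 2.92 to 21.2 ± 0.693 TPM and from 31.6 ± 1.97 to 16.3 ± 1.82 (adjusted p = 7.55e-06 and 0.000368). Other antagonists moved in both directions too. Frzb, a secreted Frizzled-related protein whose gene name does not begin with Sfrp, rose from 5.89 ± 0.749 to 10.5 ± 0.425 TPM. Notum, which removes the lipid of Wnts, rose from 18.6 ± 1.04 to 27.2 ± 3.45 TPM. Trabd2b, a protease that cleaves Wnts, rose from 24.2 ± 0.718 to 37.1 ± 2.32 TPM. Sost, an Lrp5 and Lrp6 inhibitor known from bone, fell from 3.31 ± 0.308 to 0.936 ± 0.0828 TPM, and Ror1, a co-receptor of Wnt5a, fell from 16.5 ± 0.996 to 13.2 ± 0.371. In the direct comparison 7 of these 8 were called, 4 higher and 3 lower, and Ror1 was not (adjusted p = 0.0663). The direct call of Notum (adjusted p = 0.0247 by limma) was lost without Zscan4f replicate 1 (0.0799) or 2 (0.0836). It was also lost without Zscan4f3A replicate 1 (0.0732) or 3 (0.0628). Under the alternatives the direct calls of this list were 3 to 4 higher and 2 to 4 lower. The share called was 33.3% of the genes tested in this list and 15.1% of all genes tested.

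The cytoplasmic and nuclear machinery of the beta-catenin branch came next. Of its 38 genes, all tested, 1 was higher and 5 were lower with Zscan4f, and the median log2 fold change was -0.06. These 6 are 15.8% of the list, a share no higher than the 18.5% of all genes tested, and without control replicate 2 or 3, Zscan4f replicate 2 or Zscan4f3A replicate 1 the lower calls were 3 in place of 5. Tle4, a Groucho-type corepressor, rose from 11.4 ± 0.571 to 14.9 ± 0.179 TPM. Apc2, a relative of the Apc scaffold, fell from 4.70 ± 0.306 to 2.37 ± 0.443 TPM, Tcf7l1, a Tcf factor that mostly represses, from 55.8 ± 4.72 to 42.3 ± 3.10, and Pygo1, a beta-catenin cofactor, from 4.34 ± 0.264 to 2.82 ± 0.143 (adjusted p = 0.0139, and 0.052 without control replicate 3). In the direct comparison 1 gene of this list was higher and 4 were lower (13.2% called, beside 15.1% of all genes tested). The lower calls were 2 without Zscan4f replicate 2 or 3 or Zscan4f3A replicate 1 or 3. The calls of the kinase gene Csnk1e (-0.17, adjusted p = 0.0349) and of Dvl3 (-0.16, adjusted p = 0.0359) were each lost without any of several libraries, among them control replicate 1 (adjusted p = 0.0942 and 0.116). Ctnnb1, which encodes beta-catenin, was at 405 ± 7.91 TPM in control libraries, 358 ± 37.8 with Zscan4f and 416 ± 12.7 with Zscan4f3A and was not called (adjusted p = 0.107). Ctnnb1 is outside the rule for named genes and was chosen after its values were seen.

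Of 22 genes of the planar polarity and calcium branches, 21 were tested, and 2 were higher and 6 lower with Zscan4f (38.1% called, beside 18.5% of all genes tested, of which 8.74% were higher and 9.71% lower). The higher calls were 1 without control replicate 1 or 3 or Zscan4f replicate 1, and 4 without Zscan4f3A replicate 3. Daam2, a formin that binds Dishevelled, fell from 9.27 ± 0.621 to 2.52 ± 0.265 TPM and was at 7.74 ± 1.16 with Zscan4f3A (log2 fold change -1.55, adjusted p = 5.25e-05). Vangl2, a core planar polarity protein, fell from 5.95 ± 0.229 to 2.44 ± 0.214 TPM (adjusted p = 0.000158), and Vangl1 from 11.3 ± 0.843 to 8.66 ± 0.358 (adjusted p = 0.0112). Celsr1, a planar polarity cadherin, rose from 6.14 ± 0.526 to 10.6 ± 0.275 TPM (adjusted p = 0.000628). The calcineurin subunit gene Ppp3ca, Prickle2 and Daam1 fell by 0.45, 0.28 and 0.29 on the log2 scale. Nfatc2, a calcium-regulated factor, rose by 0.59 at a low level (adjusted p = 0.0216). The calls of Nfatc2 and Daam1 were lost without control replicate 1 (adjusted p = 0.0746 and 0.0611) and without some of the other libraries. In the direct comparison 1 was higher and 4 were lower (23.8% called, beside 15.1% of all genes tested).

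Among 35 genes often used as Wnt targets, 28 were tested, and 4 were higher and 5 lower with Zscan4f (32.1% called, beside 18.5% of all genes tested). The higher calls were 2 without control replicate 1 or Zscan4f replicate 1 or 2, and the lower ones 3 without control replicate 1 or 3 or Zscan4f replicate 3. Nkd2, a feedback inhibitor that binds Dishevelled, rose from 9.75 ± 0.201 to 22.8 ± 1.95 TPM (log2 fold change 1.14, adjusted p = 0.000101). Cldn1, a tight junction protein, fell from 10.5 ± 0.482 to 4.42 ± 0.402 (adjusted p = 7.8e-05), and Ccnd1, cyclin D1, from 657.5 ± 11.5 to 561 ± 4.95 (adjusted p = 0.000689). Notum stood in this list too, and Twist1 fell by 0.24 on the log2 scale. Cd44 and Wisp2 rose by 0.39 and 0.35, while Sox9 and Fgf18 fell by 0.46 and 0.33, and these 4 calls were each lost without control replicate 1 (adjusted p = 0.0667, 0.0624, 0.0526 and 0.103). In the direct comparison 3 were higher and 2 lower (17.9% called, beside 15.1% of all genes tested). Only 1 was higher without Zscan4f replicate 1 or 2 or Zscan4f3A replicate 3. With Zscan4f3A against control, 0 genes of any of the 4 lists were called in limma. An unadjusted p under 0.05 was found for 1 of 21, 4 of 38, 1 of 21 and 5 of 28, in the order given. Over all genes tested it was found for 1389 of 15837.

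**Figure D4:**
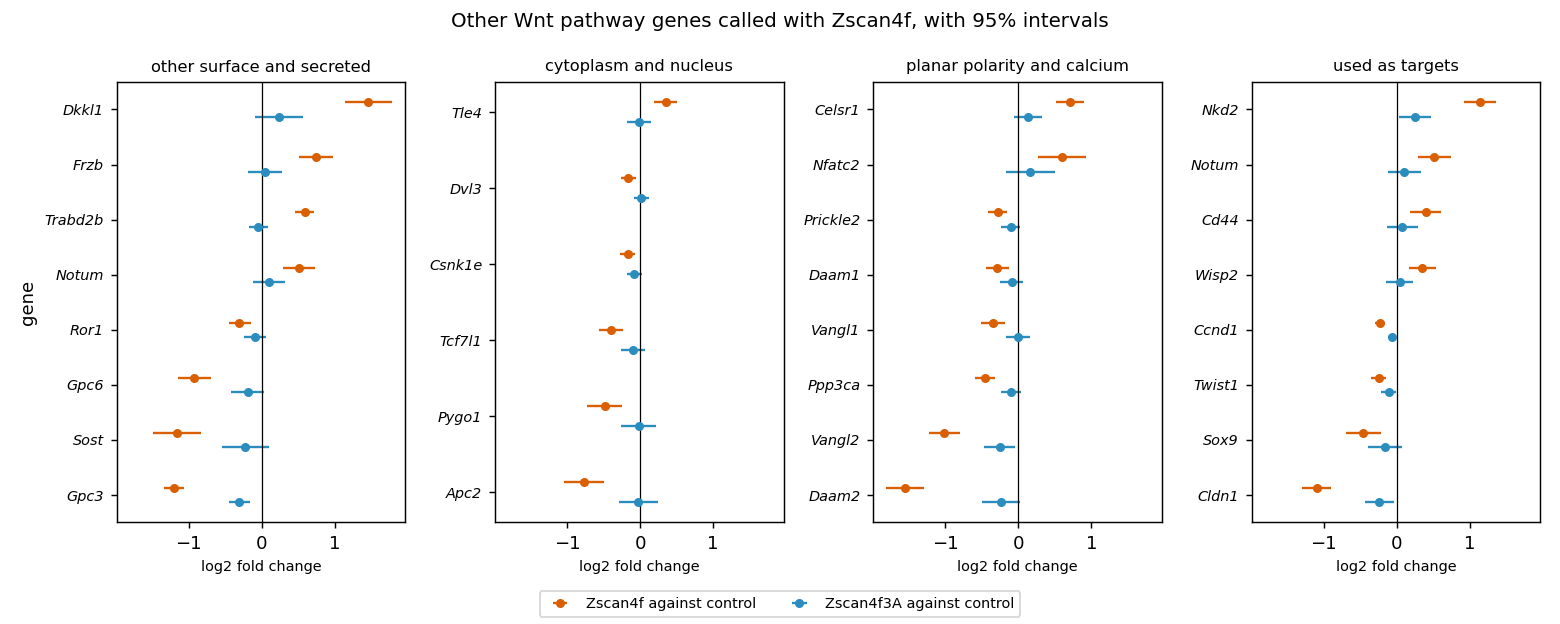
Log2 fold change of TPM + 1 with its 95% interval for other pathway genes called with Zscan4f, in 4 panels by list with at most 8 genes each, for Zscan4f against control (orange) and Zscan4f3A against control (blue), which share the control libraries. Daam2 at -1.55 and Dkkl1 at 1.46 lie farthest out, and no blue point is called.

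Markers of other cell types moved with the Zscan4f group and are given beside these results. The counts below stand beside 8.74% higher and 9.71% lower of all genes tested with Zscan4f. Of 10 epithelial markers 6 were tested and 5 were higher with Zscan4f. Their summed TPM was 45.2 to 49.6 in control, 121 to 128 with Zscan4f and 49.3 to 52.8 with Zscan4f3A. Krt8, a keratin of simple epithelia, had the highest level of them, at 20.2 ± 1.20 TPM in control and 78.5 ± 1.88 with Zscan4f. Cdh1, the epithelial cadherin, rose from 14.1 ± 0.230 to 22.1 ± 1.25 TPM, Epcam, a surface protein of epithelia, from 1.38 ± 0.459 to 6.53 ± 0.671 and Krt18, the partner of Krt8, from 1.58 ± 0.424 to 3.59 ± 0.844, and Cldn4 was the other one called higher. Krt19 was not called. Cldn7, Esrp1, Grhl2 and Ovol1 did not pass the filter, with highest levels of 0.566, 0.309, 0.454 and 0.912 TPM. In each of them the Zscan4f libraries were above all others. The summed TPM of the 8 keratinocyte markers was 102 to 104 in control, 195 to 206 with Zscan4f and 117 to 123 with Zscan4f3A, with 3 higher and 2 lower of 6 tested. Among these Krt14 was higher (28.4 ± 1.32 in control and 85.3 ± 4.07 with Zscan4f), Krt5 was lower and the defining factor Trp63 never passed 1.46 TPM. Of the neural markers, 2 of 3 tested were higher, Nes and Tubb3, with sums of 192 to 196, 257 to 276 and 206 to 209 TPM. Map2 went the other way, from 33.4 ± 1.97 TPM in control to 26.5 ± 9.84 with Zscan4f, and was not called. Sox10 and Elavl3 did not pass the filter and reached 0.193 and 0.358 TPM. The endothelial and macrophage markers had 1 of 2 tested higher each, Tek and Cd68. The endothelial sums were 30.8 to 33.8, 46.2 to 47.6 and 33.0 to 34.6 TPM. The macrophage sums were 14.6 to 16.9, 21.4 to 23.9 and 15.6 to 17.4 TPM. Most of each sum was 1 gene. Tek was at 29.5 to 31.8 TPM in control and 44.6 to 45.7 with Zscan4f, and Cd68 at 11.3 to 13.1 and 17.3 to 20.0. The defining genes of both cell types, Cdh5, Adgre1 and Ptprc, stayed at or under 0.0844 TPM. None of the 6 pluripotency markers passed the filter, so none was tested. Nanog was at 0.311 to 0.421 TPM in control, 0.759 to 1.955 with Zscan4f and 0.288 to 0.525 with Zscan4f3A. Its Zscan4f libraries were thus above all others, at a low level. The other pluripotency markers stayed at or under 0.165 TPM in every library. The part of these cell types in the changes of the Wnt genes was not tested.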

How the data were processed

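RNA-seq libraries were made with a TruSeq RNA kit, per the labels' protocols, and reads were processed with HISAT2 2.1.0 and StringTie, per the submitters' processing notes. The StringTie version and the genome build are stated in no source used here. The deposited files give TPM, per kilobase and scaled by the authors to 1000000 in each library. The deposited FPKM values, scaled by the authors to library size, served as an alternative. The authors' coverage, a signal of mean read depth over a gene, served only to estimate depth. The estimate was the most frequent ratio of coverage to FPKM. Only 18.1 to 20.1% of the genes used lay within 0.01 of it, so it is rough. No counts are in the files used, so precision is given as the SD of 3 libraries. Gene coordinates were identical to GRCm38 for 47 of the 49 gene IDs. Entries sharing a gene ID were summed (15 IDs), and none of 36 library pairs was identical (0).

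Groups were taken from the labels, and titles without an overexpressed gene were read as control. Genes that reached 1 TPM in 3 or more of the 9 libraries were fitted in limma 3.58.1 (R 4.3.3) as log2(TPM + 1), which understates changes of low genes, with 1 mean per group and a trended prior variance. Tests were two-sided and Benjamini-Hochberg adjusted over 15837 genes. Every tested gene of the family is described. Values of all libraries are given for genes called in any comparison and, in general, for the leading 2 of a role, and at most 8 called genes of each other list are named, with Fgf18 added among the targets. Lists for the pathway and for cell types were written by hand. The members and lists were chosen with earlier results of these data known. Alternatives were a pseudocount of 0.1, no filter or a filter at 5 TPM, FPKM, quantile normalization, median-of-ratios scaling, no trend, a robust prior, fitting only 2 groups, the replicate number as a block, a threshold of 0.01 and leaving out each library. Counts per role and list under these were added after seeing the data. The code was tested on simulated data for Zscan4f against control with 200 changed genes among 15837, and recovered 64% at a log2 change of 0.5 and 86% at 1 with 7 false calls. Promoters came from a RefSeq table of GRCm38.p6. Figures used matplotlib 3.10.9 in Python 3.11.15 with numpy 2.4.6 and pandas 2.3.3.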

Additional observations from a re-analysis of the deposited data

How the results depend on the processing

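Over 20 alternatives the number of genes of the family called with Zscan4f against control (15) was 12 to 15 without single libraries and 16 at most, and 8 at an adjusted p under 0.01. That of the direct comparison (9) was between 7 and 10, and that of Zscan4f3A against control was 0 in limma under each alternative. Of 174 log2 fold changes of named genes (each gene in each comparison), 0 of those called changed sign under an alternative and 16 of the uncalled did, among them that of Lef1 in all comparisons and that of Axin2 in the direct one. Over all genes, a threshold of 0.01 gave 1558 in place of 2922 with Zscan4f against control, 1149 in place of 2395 in the direct comparison and 2 in place of 5 with Zscan4f3A against control. The last count was 3 with no filter, 1 to 16 without single libraries (lowest without control replicate 3, highest without Zscan4f3A replicate 3) and 1 with the replicate number as a block, and the direct count was 1574 to 2168 without single libraries (lowest without Zscan4f replicate 3). The causes were not tested beyond the stricter threshold and the fewer libraries themselves.

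The replicate numbers do not pair the libraries in the labels, and residuals of libraries with the same number correlated between -0.079 and 0.053. With the replicate block 13 genes of the family were called with Zscan4f against control, where Lrp5 (adjusted p = 0.0512) and Fzd2 (0.055) were lost, and 9 in the direct comparison. Scaling alternatives moved the median of all genes by less than 0.1 on the log2 scale. With 3 libraries a group and no counts, small changes of genes near 1 TPM could not be resolved.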
